A study of Prunus yedoensis with 90 samples.

Results

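A set of 109 gene IDs of the Yoshino cherry 'Somei-yoshino' had transcripts in the leaves of every site and next to none in the buds of any month. They were chosen by measured values of these same samples among 95076 deposited IDs, on the log2(TPM + 1) scale, where TPM is a level scaled for transcript length and library total. A member had a mean of at least 3 over 24 leaf libraries, which stands for about 7 TPM. Its mean over the buds of 6 trees stayed below 1, about 1 TPM, in each of 10 calendar months, June to March. Its mean over the leaves of the 6 trees also moved by less than 1 between the June and the last leaf collection. Of 17229 IDs with that leaf level, 197 met the bud limit, and 88 of these were left out for a leaf change of 1 or more, 66 upward and 22 downward. These 3 measures chose the genes, so they are described here without a test. Tests are kept for differences between sites, for the months within the leaf season and for April buds. April buds had no part in the choice. The leaf differences are not measures of the rule, but they come from the same 24 leaf libraries, whose averages over the sites the rule used, so the tests on leaves are not independent of the choice in their samples.

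No gene name goes with an ID in the deposited files, so the genes are given by ID, no function can be assigned, and the tissue labels could not be checked against named marker genes. As background, a cherry leaf unfolds in spring, builds the machinery of photosynthesis and transport while it grows, and ages towards autumn. The bud beside it is formed in summer, encloses preformed leaf or flower primordia, passes through winter dormancy and opens in spring. The sample titles do not say which of these the sampled buds held. 'Somei-yoshino' is a clonally propagated hybrid cultivar, so its genome holds a chromosome set from each parent, and similar copies of a gene can each have an ID. The IDs carry the letters SPA in 55 members and SPE in 54, letters that neither the labels nor the files explain.

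Leaves were sampled from 2 trees at each of 3 sites in Japan on 4 dates in 2018, which gave 24 libraries. The leaf dates were 4 June, 9 July, 13 August and 7 September in Hokkaido, the northern site, then 6 June, 5 July, 7 August and 5 September in Tsukuba, and 7 June, 4 July, 1 August and 29 August in Fukuoka, the southern site. They are called collections 1 to 4. Buds came from the same trees on 11 dates per site through spring 2019, which gave 66 libraries, 60 of them in the 10 months of the rule. The other 6 bud libraries are those of Fukuoka on 29 August, of Tsukuba on 4 April and of Hokkaido on 8 April. The labels name no treatment and no genotype other than this variety for any of the 6 trees. With 2 trees a site, the p-values for site level and April buds measure the spread between single trees of 1 clone. The other leaf tests took the 4 dates of a tree as separate, although tree deviations correlated between dates, with a median r of 0.197 to 0.26 by site. Leaf library numbers also run in separate series for the 2 trees of a site, so the spread need not be of trees alone. Material was taken around midday from the sunlit crown. Leaf and bud RNA were extracted by different methods, and the effect of tissue and that of extraction cannot be told apart, and in both tissues fewer cells of a type and less RNA per cell cannot be told apart.

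Both leaf libraries of the June collection in Hokkaido stood apart from the rest. Over 40269 genes, their correlation with the mean of the other leaves was 0.754 in replicate 1 and 0.887 in replicate 2, against 0.943 to 0.982 in the other 22 leaf libraries. With the bud library of the same tree and date it was 0.861 and 0.788, against 0.593 to 0.715 in the others. Replicate 1, a library labelled leaf, was thus closer to its bud than to the other leaves. A list of 1505 bud genes, with a leaf mean below 1 in the other 22 leaf libraries and at least 3 in June buds, summed to 40610 TPM in replicate 1 and 11930 TPM in replicate 2. The other leaf libraries had 241.1 to 1982 TPM of it, and the June buds 42730 to 60190 TPM. The part of this in the June results below was not tested, and values without replicate 1, without both libraries or without the collection are given beside the main results that rest on them. Sequencing depth is unknown, since every library sums to the same TPM total.

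**Figure D1:**
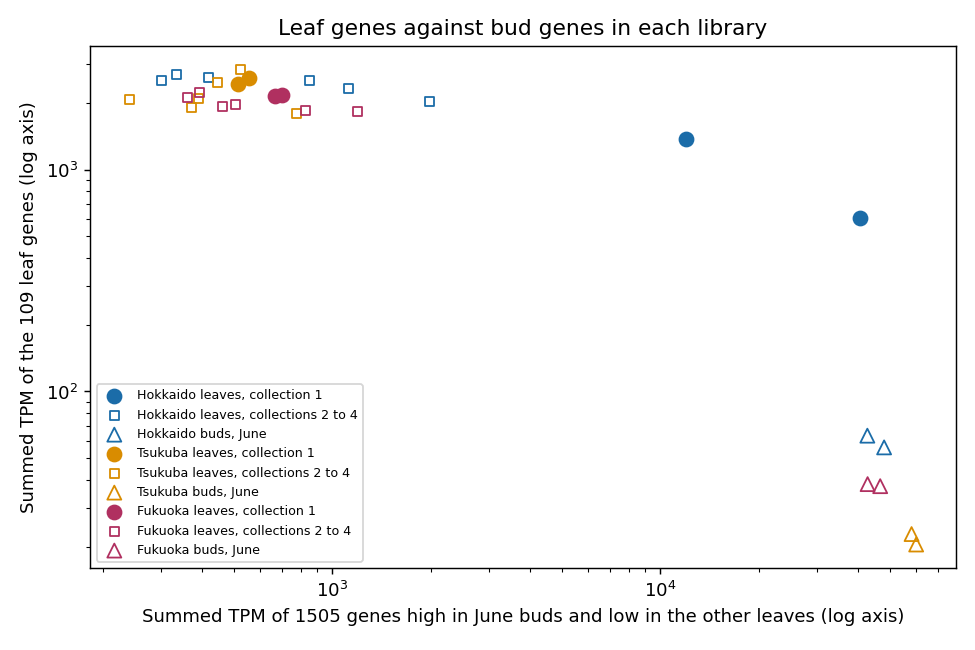
Summed TPM of the 109 leaf genes (vertical, log axis) against summed TPM of 1505 bud genes (horizontal, log axis), 1 point per leaf library and per June bud library. The filled blue circles, the June leaves of Hokkaido, lie at 605.7 and 1371 TPM of the leaf genes with 40610 and 11930 TPM of the bud genes, between the other leaves and the buds.

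The genes were a small and mostly moderate part of the leaf transcriptome. Their leaf means ran from 3.004 to 7.198 on the log2(TPM + 1) scale, with a median of 3.73. Only 13 reached 5, and 42 reached 4. Together they made up 605.7 to 2819 TPM of a leaf library, with a median of 2132 TPM, or 0.0606% to 0.282% of all transcripts. Without the June leaves of Hokkaido the lowest sum was 1790 TPM. All 109 exceeded 1 TPM in 21 of 24 leaf libraries, and the lowest count was 88, in the June library of Hokkaido replicate 1. That library held 21 of the 23 leaf values at or below 1 TPM, out of 2616.

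CYE_r3.1SPA5_g018080.1 had the highest leaf mean of the set. Over collections 1 to 4 it had 20.9, 134, 229 and 192 TPM in Hokkaido replicate 1, and 64.0, 210, 199 and 222 TPM in replicate 2. Tsukuba leaves had 180, 243, 145 and 188 TPM in replicate 1 and 133, 167, 100.2 and 137 TPM in replicate 2. Fukuoka leaves had 154, 157, 148 and 166 TPM in replicate 1 and 128, 127, 179 and 182 TPM in replicate 2. The only values below 100 TPM were the June values of Hokkaido, and the other dates overlapped between the sites. In the 60 June to March buds the same gene never exceeded 0.605 TPM, and its median was 0.158 TPM.

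CYE_r3.1SPE4_g036020.1 came next, with 41.4 to 136 TPM over the leaves of Hokkaido, 53.8 to 101 TPM in Tsukuba and 61.9 to 96.0 TPM in Fukuoka, and at most 0.497 TPM in a June to March bud. It was listed at 0 in 46 of those 60 buds. The next 3 by leaf mean were CYE_r3.1SPE1_g025740.1, CYE_r3.1SPE0_g047720.1 and CYE_r3.1SPA8_g007460.1. Their leaf medians were 49.0, 47.7 and 41.8 TPM, and their highest June to March bud values were 1.65, 2.12 and 1.52 TPM. In these 5 genes each single leaf value was thus above each of the 60 bud values.

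At the edges of the rule the values were continuous. The last member by leaf level, CYE_r3.1SPA0_g112060.1, had a leaf mean of 3.004, and the first ID outside, CYE_r3.1SPE0_g097830.1, had 2.995. By bud level, CYE_r3.1SPE0_g098340.1 was inside with a highest monthly mean of 0.997, and CYE_r3.1SPA0_g171930.1 was outside with 1.00. By leaf change, CYE_r3.1SPE0_g118410.1 was inside with 0.999, and CYE_r3.1SPE3_g004220.1 was outside with 1.01.

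Buds held the set at a trace level through the year. The summed level was 13.57 to 63.23 TPM in the 60 June to March buds, with a median of 22.18 TPM, and the median member was at 0 to 0.292 TPM. Of the 6540 single values, 48.9% were listed at 0 and 4.63% exceeded 1 TPM. A bud library had 1 to 22 members over 1 TPM, with a median of 3.5. In all, 44 members never exceeded 1 TPM in these buds, 103 never exceeded 5 TPM, and 1 was listed at 0 in all 60.

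The trace varied with the month. The summed level averaged 39.69 ± 17.23 TPM in June buds, 17.34 ± 3.556 TPM in January buds and 29.2 ± 3.564 TPM in March buds (SD, n = 6 trees each). June was the month of the highest mean for 39 members, March for 15 and February for 13. The Hokkaido buds were the highest in June, with 55.99 and 63.23 TPM, against 20.44 to 38.25 TPM in the June buds of Tsukuba and Fukuoka. The Fukuoka buds of 29 August, which the rule left out, had 16.47 and 19.29 TPM and only 2 and 3 members over 1 TPM.

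**Figure D2:**
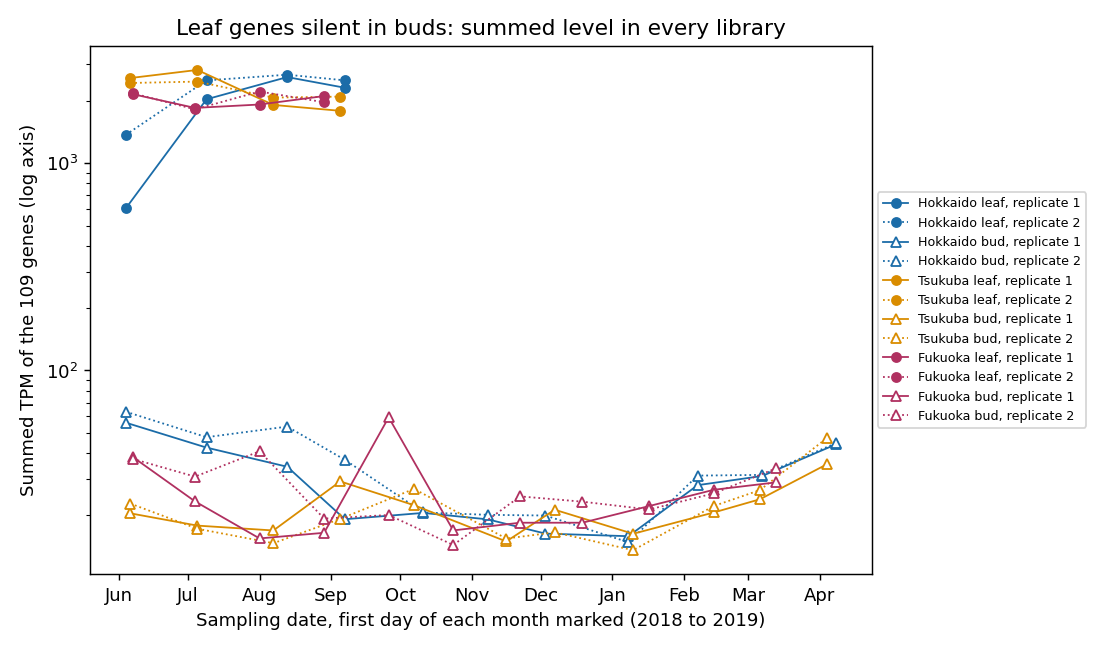
Summed TPM of the 109 genes (log axis) in every library by sampling date, with leaves as filled circles, buds as open triangles and 1 line per tree. Leaves lie at 1790 to 2819 TPM except for Hokkaido in June, and buds lie at 13.57 to 63.23 TPM from June to March.

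Exceptions in single buds were few. The 6 members that exceeded 5 TPM in a June to March bud included 3 that peaked in the same library. CYE_r3.1SPE0_g004050.1 reached 13.33 TPM, CYE_r3.1SPA2_g040760.1 reached 12.46 TPM and CYE_r3.1SPE0_g133360.1 reached 11.63 TPM, all in the Fukuoka replicate 1 bud of 26 September. In the other Fukuoka tree on that date they had 0.113, 0 and 0.368 TPM. The members CYE_r3.1SPE0_g004050.1 and CYE_r3.1SPE0_g133360.1 also had the same values in both September buds of Hokkaido, 0.0648 and 0.0335 TPM. CYE_r3.1SPA2_g040760.1 did not share them, with 0.296 and 0 TPM. Of the other 3, CYE_r3.1SPA1_g030180.1 was seen in both trees, at 7.30 and 5.95 TPM in the Tsukuba buds of 7 October, and so was CYE_r3.1SPA1_g018820.1, at 6.37 and 5.60 TPM in the Hokkaido buds of 13 August. Both were listed at 0 in the buds of the other sites in the same month. CYE_r3.1SPE8_g025540.1 had 6.74 TPM in 1 Hokkaido tree in June and 0.949 TPM in the other.

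The April buds are the latest samples of the series and were not part of the rule. The summed level was 35.24 and 47.12 TPM in April buds of Tsukuba, against 23.9 and 26.46 TPM there in March. Hokkaido had 44.01 and 44.59 TPM in April, against 30.96 and 31.34 TPM in March. In both sites both trees were higher in April than either was in March, a description with no test. The rule held March low and set no limit on April, so a rise between them can follow from the choice. No March to April change of other genes is set beside it. The April sums were still 1.81% of the summed leaf level in Tsukuba and 2.13% in Hokkaido. Both trees exceeded 1 TPM for 5 members in Tsukuba and 12 in Hokkaido, and 25 and 38 members were listed at 0 in both trees. None exceeded 5 TPM.

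The highest April value of any member was 3.39 TPM. CYE_r3.1SPE0_g133360.1 led in Hokkaido, with 0.537 and 0.474 TPM in Tsukuba April buds and 2.88 and 3.01 TPM in Hokkaido April buds. CYE_r3.1SPA5_g027390.1 had 0.887 and 2.14 TPM in Tsukuba and 2.43 and 2.62 TPM in Hokkaido. In Tsukuba CYE_r3.1SPE6_g014800.1 and CYE_r3.1SPE4_g021090.1 led, with 1.41 and 1.75 TPM and with 1.42 and 1.67 TPM, against 1.41 and 0.921 TPM and 1.07 and 3.39 TPM in Hokkaido. Between the sites 0 members and 0% of 35534 genes were called by limma with Benjamini-Hochberg adjustment, in a fit of 2 trees against 2. At an unadjusted p under 0.05 stood 16 members and 6647 genes. When all 66 bud libraries shared one estimate of the spread, 2 members were called, both lower in Tsukuba. No share of all genes is set beside this count, and that spread comes mostly from other months. The 2 calls are therefore not read as a site difference in April. A call here and below needs an adjusted p under 0.05 over all 35534 genes and a difference of at least 1 on the log2(TPM + 1) scale.

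The June leaves of Hokkaido had less of the set than those of the other sites. The median member was at 2.738 and 6.845 TPM in Hokkaido replicates 1 and 2, and at 11.05 to 17.66 TPM in every other leaf library. Of the 109 genes, 63 were called lower and 1 higher in Hokkaido than in the mean of Tsukuba and Fukuoka, with a median difference of -1.40 (limma, 2 trees against 4). Over all genes tested 10.1% were called lower and 9.27% higher, and the median difference was -0.14. The drop was shared with other leaf genes that buds express less: of 1640 IDs at leaf level 3 or more that stood at least 2 above the buds of the same dates, 37.5% were called lower, with a median of -0.70. Among the 88 silent IDs left out for their change it was 69.3%, and among the 17120 other IDs of that leaf level 12.4%.

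The 2 Hokkaido trees differed in size. Against the mean of the other June leaves the median member was lower by 1.973 in replicate 1 and by 0.739 in replicate 2, and 78 and 44 members were lower by 1 or more. In 102 of 109 genes replicate 1 was lower than replicate 2. Both Hokkaido libraries lay below all 4 libraries of the other sites for 70 members, 64.2%, against 32.4% of all genes tested and 52.7% of the other leaf-enriched IDs. Among the 88 silent IDs left out for their change it was 68.2%, so this was not particular to the members. Without the tree of replicate 1, whose June library held 40610 TPM of the bud list, the difference rests on 1 Hokkaido tree. The median member was then lower by 0.739, and it was lower by 1.973 with replicate 1 as the only Hokkaido tree.

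The members with the largest June falls stood at a few TPM in Hokkaido. CYE_r3.1SPE0_g133360.1 had 1.23 and 2.10 TPM in Hokkaido June leaves, against 37.9 and 33.0 TPM in Tsukuba and 43.9 and 27.1 TPM in Fukuoka. Its difference was -3.77 (SE 0.51, adjusted p = 4.456e-05). CYE_r3.1SPE0_g046840.1 was listed at 0 in replicate 1 and had 4.00 TPM in replicate 2, against 29.7 and 46.4 TPM in Tsukuba and 19.8 and 18.1 TPM in Fukuoka, a difference of -3.62 (SE 0.48, adjusted p = 3.555e-05). For both genes the 2 Hokkaido trees lay below all 4 others. CYE_r3.1SPE0_g047720.1, one of the 5 highest in leaves, had 6.94 and 6.86 TPM in Hokkaido and 49.1 to 79.3 TPM elsewhere, a difference of -3.0 (SE 0.29, adjusted p = 2.077e-06), with the 2 Hokkaido trees nearly equal. For CYE_r3.1SPA5_g018080.1 the difference was -1.98 (SE 0.33, adjusted p = 0.0002655).

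One member went the other way. CYE_r3.1SPA0_g129160.1 had 39.5 and 70.8 TPM in the June leaves of Hokkaido, against 8.60 and 7.04 TPM in Tsukuba and 1.98 and 5.27 TPM in Fukuoka. Both Hokkaido trees were above all others, and the difference was 3.13 (SE 0.57, adjusted p = 0.0005422). The buds of June to March had at most 1.28 TPM of it.

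**Figure D3:**
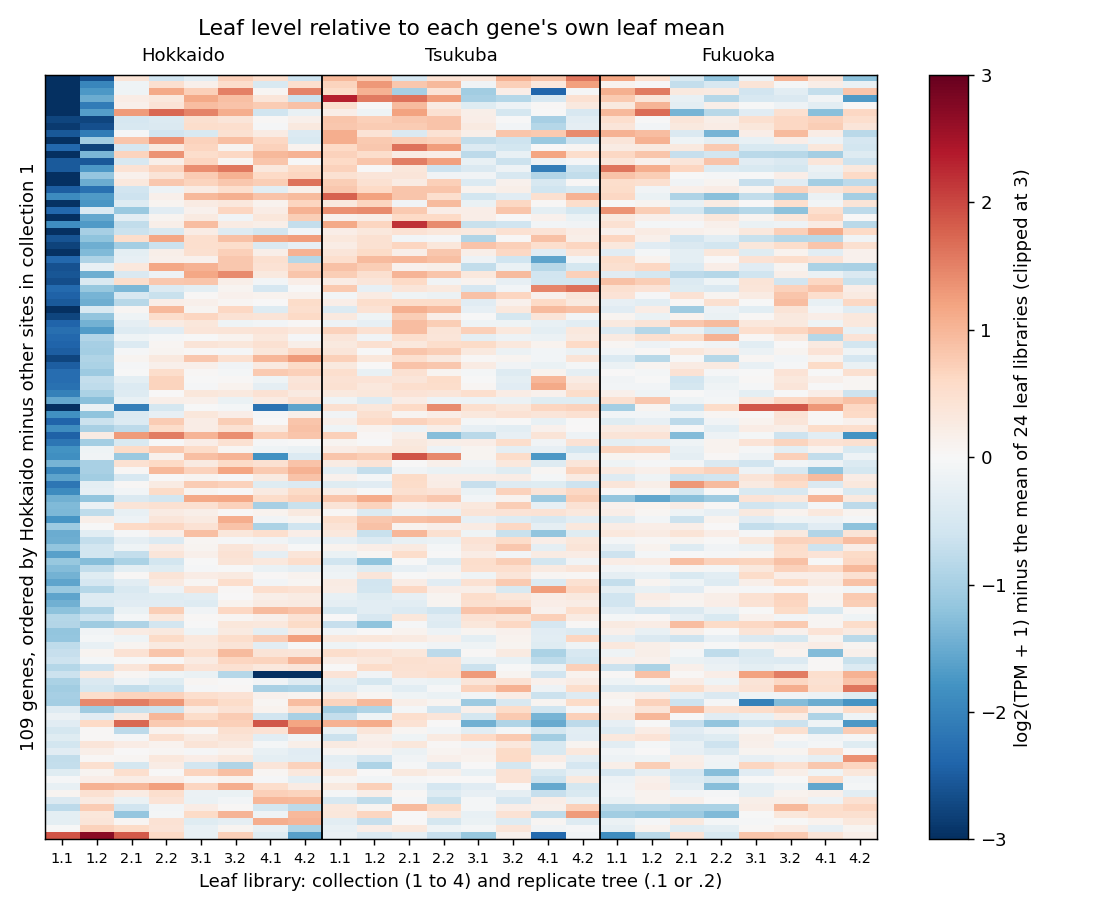
Leaf level of each of the 109 genes as log2(TPM + 1) minus its mean over 24 leaf libraries, with genes in rows ordered by the June site difference and libraries in columns by site, collection and tree. The first 2 columns, the June leaves of Hokkaido, are blue in most rows and darker in tree 1, and the bottom row is CYE_r3.1SPA0_g129160.1.

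From July on the site difference of the set as a whole was near 0. The median member stood at 11.52 and 15.95 TPM in the July leaves of Hokkaido, and the median difference between Hokkaido and the other sites was 0.01 in collection 2, 0.18 in collection 3 and 0.22 in collection 4. Called members were 8 of 109 in collection 2 and 8 in collection 3, 2 higher and 6 lower in the first of these and 7 higher and 1 lower in the next. Over all genes the shares called were 3.68% and 4.16%. With the tree as a block the counts were 15 and 13, and without the June library of Hokkaido replicate 1 they were 14 and 15. No share of all genes is set beside counts under other settings, so they are not read as particular to the members. Collection 2 gave 1 call without Hokkaido replicate 1, 2 without either tree of Tsukuba, 4 without either tree of Fukuoka and 15 without Hokkaido replicate 2. Collection 3 gave 2 calls without Tsukuba replicate 1 or Hokkaido replicate 2, 3 without Fukuoka replicate 2 or Hokkaido replicate 1, and 4 without Fukuoka replicate 1.

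In collection 4, from 29 August to 7 September, 12 members were higher in Hokkaido and 5 lower, against 3.86% and 6.3% of all genes. These are 11% and 4.59% of members. The shares were 12.7% and 5.85% in the other leaf-enriched IDs, and 15.9% and 21.6% in the 88 silent IDs left out for their change. More calls upward than in all genes were thus not particular to the members. Without replicate 1 of either Fukuoka or Tsukuba, 11 were called in all. CYE_r3.1SPA8_g007460.1 had 163 and 101 TPM in Hokkaido, against 14.8 and 25.1 TPM in Tsukuba and 40.3 and 12.6 TPM in Fukuoka, a difference of 2.56 (SE 0.40, adjusted p = 0.0003467). CYE_r3.1SPE8_g008920.1 had 28.7 and 54.2 TPM in Hokkaido, against 11.7 and 17.0 TPM in Tsukuba and 7.82 and 9.32 TPM in Fukuoka, a difference of 1.75 (SE 0.35, adjusted p = 0.002148). In both genes the Hokkaido trees were above all 4 others.

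The largest falls of that date were in genes that Hokkaido leaves had carried earlier. CYE_r3.1SPA1_g030180.1 was listed at 0 in both Hokkaido trees and had 4.48 and 7.83 TPM in Tsukuba and 10.6 and 16.0 TPM in Fukuoka, a difference of -3.30 (SE 0.35, adjusted p = 1.832e-05). In Hokkaido it had 4.25 and 8.99 TPM in June, and its change there from collection 1 to 4 was -2.86. CYE_r3.1SPA0_g002090.1 had 1.05 and 2.22 TPM in Hokkaido, against 14.0 and 14.5 TPM in Tsukuba and 22.4 and 13.8 TPM in Fukuoka, a difference of -2.71 (SE 0.60, adjusted p = 0.004093). In Hokkaido it had 8.47 and 8.13 TPM in August, but its change there from collection 1 to 4 was only -0.28. The 2 genes thus did not share a fall from June. The Hokkaido leaves of this collection were taken on 7 September, after those of both other sites.

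**Figure D4:**
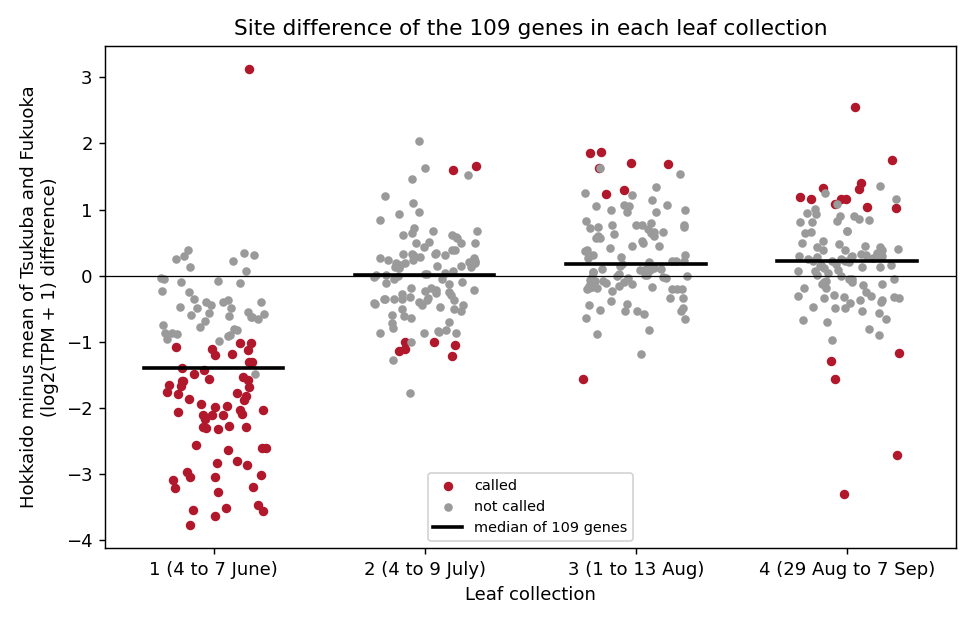
Difference of each of the 109 genes between Hokkaido and the mean of Tsukuba and Fukuoka in log2(TPM + 1), by leaf collection, with called genes in red, the others in grey and the median as a bar. The median is -1.40 in June and between 0.01 and 0.22 in collections 2 to 4.

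The rule asked for little change over the season as a mean of the 6 trees, and this mean covered unlike courses at the sites. Between collections 1 and 4 the median member changed by 1.575 in Hokkaido, by -0.167 in Tsukuba and by 0.066 in Fukuoka. A rise of 1 or more was seen in 76 members in Hokkaido, 2 in Tsukuba and 6 in Fukuoka, and a fall of 1 or more in 2, 17 and 16. All genes tested had medians of 0.16, 0.21 and 0.07 in the same order of sites. Since the mean of the 3 changes had to stay under 1, a member with a large rise in Hokkaido could enter only with smaller rises or falls elsewhere, and the rule thus shapes these opposite courses. Without the June library of Hokkaido replicate 1 the median change there was 0.97, with 53 rises and 6 falls of 1 or more. The change was called different between the sites for 65 members (limma F test with a range of 1 or more), against 26.3% of all genes, 53.5% of the other leaf-enriched IDs and 55.7% of the 88 silent IDs that the rule on change left out. These shares describe the set, and nothing particular to it is read from them. Of the 63 members called lower in the June leaves of Hokkaido, 52 were among them, and both counts use the same June libraries. Without the June library of Hokkaido replicate 1 the count was 50, and without that tree 41.

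CYE_r3.1SPA5_g019060.1 had the widest range. It changed by 3.29 in Hokkaido, by -2.0 in Tsukuba and by -1.26 in Fukuoka, a range of 5.28 (adjusted p = 0.003798). Hokkaido trees had 0.097 and 2.23 TPM in June and 10.2 and 29.1 TPM in September, whereas Tsukuba trees had 14.7 and 21.1 TPM in June and 1.07 and 9.46 TPM in September, and Fukuoka trees had 21.5 and 30.4 TPM in June and 5.54 and 17.9 TPM on 29 August. Hokkaido was thus lowest in June, and its mean was the highest in the last collection, where single trees overlapped with Fukuoka. Without the June library of Hokkaido replicate 1 the range was 4.50 (adjusted p = 0.03309). CYE_r3.1SPA0_g129160.1 had the opposite signs in Hokkaido and Fukuoka, with changes of -3.30 in Hokkaido, -0.90 in Tsukuba and 1.62 in Fukuoka, a range of 4.92 (adjusted p = 0.003671), or 5.33 without that library (adjusted p = 0.009168). Hokkaido was highest in June, and at the last collection it was below Fukuoka and overlapped with Tsukuba. The last values were 7.53 and 2.52 TPM in Hokkaido, 1.17 and 9.20 TPM in Tsukuba and 13.3 and 11.3 TPM in Fukuoka.

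**Figure D5:**
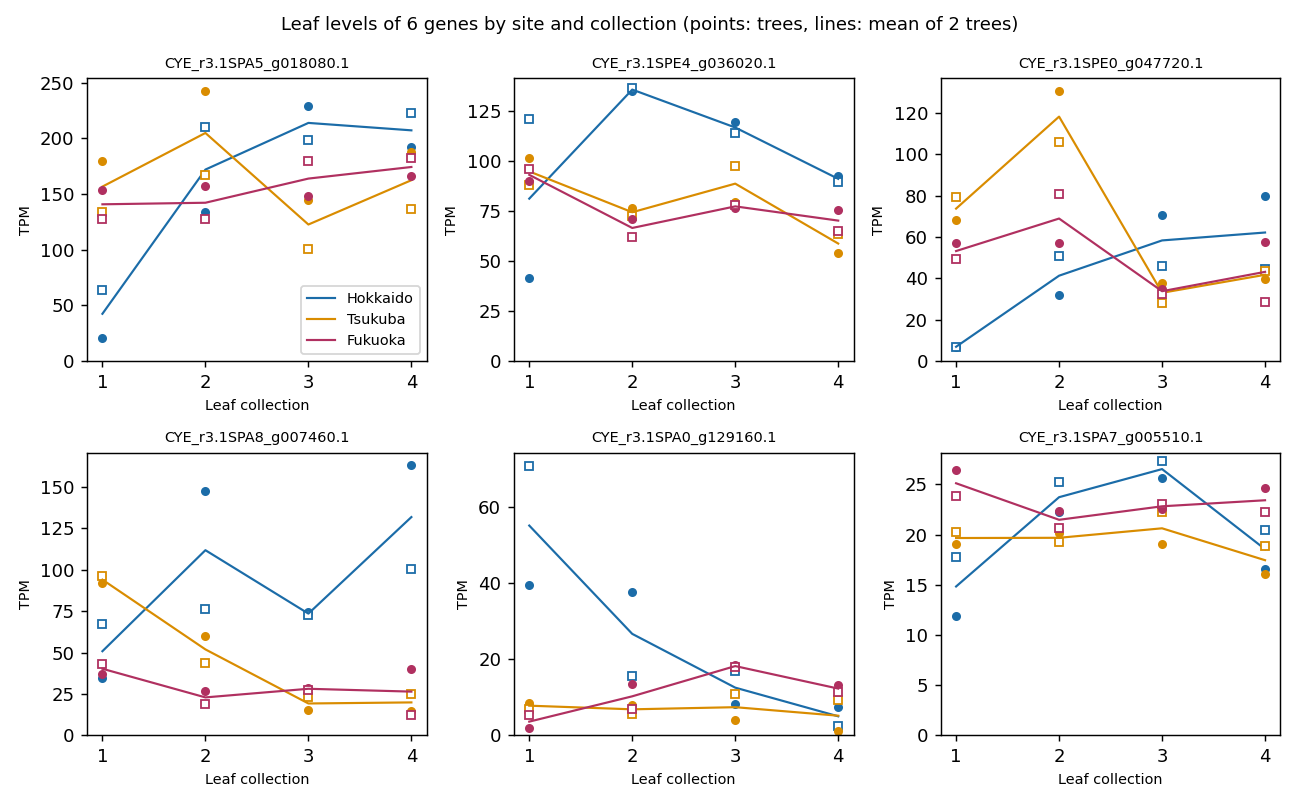
TPM of 6 members in leaf collections 1 to 4, with points for trees (filled for replicate 1, open for replicate 2) and lines for the mean of 2 trees per site. CYE_r3.1SPA0_g129160.1 is highest in Hokkaido in June, CYE_r3.1SPE0_g047720.1 is lowest there, and CYE_r3.1SPA7_g005510.1 varies little.

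Averaged over the 4 collections, the sites differed in few members. The level differed between sites for 15 members, against 8.37% of all genes (limma F test on tree means, range of 1 or more). The share was 13.2% in the other leaf-enriched IDs and 67% in the 88 silent IDs left out for their change, against 13.8% of members. Hokkaido stood above Fukuoka in 3 and below it in 6, against 2.38% and 3.33% of all genes, and above Tsukuba in 2 and below it in 8, against 3.03% and 3.5%. Over collections 2 to 4 only, the split turned: Hokkaido was above Fukuoka in 9 members and below it in 3, and above Tsukuba in 5 and below it in 2. No share of all genes is set beside these counts, so the turn is not read as particular to the members. Tsukuba and Fukuoka had 0 calls by limma, against 0.228% of all genes, with 30 of 109 members and 4192 of 35534 genes at an unadjusted p under 0.05. The count of 15 was 4 without Hokkaido replicate 1 and 7 without either tree of Fukuoka, and the counts for Hokkaido against Fukuoka and against Tsukuba were 13 and 17 without Hokkaido replicate 2. The first of them was 2 without Fukuoka replicate 1 and 4 without Fukuoka replicate 2, and the next was 3 without Tsukuba replicate 1, and 6 without Tsukuba replicate 2 or Hokkaido replicate 1.

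CYE_r3.1SPA8_g007460.1 was the largest rise over Fukuoka. Its leaf levels ran over 34.4 to 163 TPM in Hokkaido, 14.8 to 96.0 TPM in Tsukuba and 12.6 to 43.3 TPM in Fukuoka, and the difference was 1.56 (SE 0.19, adjusted p = 0.004716). CYE_r3.1SPA7_g003260.1 followed, with 4.15 to 29.3 TPM in Hokkaido and 1.56 to 15.9 TPM in Fukuoka, a difference of 1.50 (SE 0.27, adjusted p = 0.01315). Both genes overlapped between the sites in single libraries. The largest falls were those of CYE_r3.1SPA0_g002090.1, with a difference of -1.79 (SE 0.36, adjusted p = 0.01991), and CYE_r3.1SPA1_g030180.1, with -1.63 (SE 0.19, adjusted p = 0.004031), the members described above for the September leaves of Hokkaido.

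Within the season no member passed the thresholds. Between July and August 0 members were called by limma, against 2.36% of all genes, with a median difference of 0.10. At an unadjusted p under 0.05 stood 30 of 109 members and 8362 of 35534 genes. With the tree as a block 1 was called, and without either tree of Hokkaido 2. Midsummer, the mean of collections 2 and 3, was set against the mean of collections 1 and 4. Again 0 were called, against 0.0957% of all genes, but 93 of 109 members lay above 0, with a median of 0.27 against -0.0043 over all genes. An unadjusted p under 0.05 was found for 46 of 109 members and 5180 of 35534 genes. The same shift was seen in the 88 silent IDs with a larger change, with 66 above 0 and a median of 0.26, and in the other leaf-enriched IDs, with 1234 of 1640 above 0 and a median of 0.11. Without Hokkaido replicate 2, 1 was called. The low June leaves of Hokkaido are among the ends in this difference. Without the June library of replicate 1, 85 members lay above 0 with a median of 0.16, and in Tsukuba and Fukuoka alone 58 did, with a median of 0.02.

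Over the 24 leaves the members varied more than other leaf genes. The SD of log2(TPM + 1) had a median of 0.651 over members and 0.342 over the 17120 other IDs of leaf level 3 or more, and 0.476 and 0.297 without the June leaves of Hokkaido. The larger spread is not read as particular to the set. The range of site levels had a median of 0.315 over the 17120 IDs and 0.4386 over the other leaf-enriched IDs. It was 1.452 over the 88 silent IDs left out for their change and 0.5935 over the members. CYE_r3.1SPA7_g005510.1 was the steadiest, with an SD of 0.253 and 11.9 to 27.4 TPM, followed by CYE_r3.1SPA3_g026810.1 with an SD of 0.254 and 8.93 to 19.2 TPM. The widest were CYE_r3.1SPE1_g035660.1, with an SD of 1.276 and 0.21 to 59.1 TPM, and CYE_r3.1SPA0_g002090.1, with an SD of 1.248 and 0.17 to 33.9 TPM. In both of these the lowest value was the June library of Hokkaido replicate 1.

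Some members had nearly the same leaf profile. Over the 24 leaf libraries, which share sites and dates, 5886 pairs of members had a median Pearson's r of 0.416, and 787 pairs were below 0. Without the June library of Hokkaido replicate 1 the median was 0.181, with 4 pairs at 0.99 or more and 1763 below 0. Without both June libraries of Hokkaido it was 0.1, with 1 pair and 2253, so the likeness of the members in leaves rests largely on these libraries. Over all 24 libraries an r of 0.99 or more was reached by 8 pairs, made of 16 members. The closest was CYE_r3.1SPE0_g190480.1 with CYE_r3.1SPE0_g051120.1 at r = 0.9956, and CYE_r3.1SPE0_g047720.1 and CYE_r3.1SPA0_g037440.1 had r = 0.9938. Each of the 8 pairs held at least 1 ID with a 0 after the letters. Of single IDs, 36.7% of members, 24.4% of IDs at leaf level 3 or more and 39.9% of all IDs carry this digit. A pair can hold it in either ID, so the count of pairs is not comparable with these shares. No source used here says how reads that fit several similar copies were counted, and levels within such pairs are uncertain.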

How the data were processed

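The authors deposited TPM values for 95076 gene IDs in 90 libraries, and a second table of the same TPM values for a subset of the IDs was not used. StringTie 1.3.5, STAR 1.5.2 and fastp 0.20.0 are listed, without their roles, per the submitters' processing notes. The genome build and the annotation were not given in the sources used here. Every library sums to 1000000 TPM, so depth and counting error are unknown. No sequence is printed, since no reference was used here.

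Values were analysed as log2(TPM + 1), a scale that understates changes of low genes, with limma 3.58.1 in R 4.3.3 (eBayes, Benjamini-Hochberg over the 35534 genes with a leaf mean of at least 1 TPM). The filter used leaf means only, so April levels did not enter it. All 109 members passed it through the leaf level of the rule. Site levels were tested on tree means, and the other leaf differences on 12 means of site and collection. The fits were also run on simulated data with independent libraries and no tree effect. That run does not cover the correlation between dates of a tree. Figures used Python 3.11.15 with matplotlib 3.10.9.

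The members, lists and tests were chosen with earlier results of these data known, and the differences of Hokkaido from the other sites within each collection were added after seeing the data. Named genes were the 5 highest in leaves, those nearest each threshold, the 2 largest called rises and the 2 largest falls per test, the highest in a single bud and in April buds, and those of highest and lowest leaf SD. CYE_r3.1SPE0_g047720.1 and CYE_r3.1SPA5_g018080.1 in June, the pairs of like members, and CYE_r3.1SPE0_g133360.1, CYE_r3.1SPA1_g030180.1, CYE_r3.1SPE8_g025540.1 and CYE_r3.1SPA1_g018820.1 among bud peaks, were named after their values were seen.

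By the labels a replicate number is 1 tree throughout, so it pairs dates within a site. Deviations of the trees from their site mean correlated across genes between leaf dates with a median r of 0.203 in Hokkaido, 0.197 in Tsukuba and 0.26 in Fukuoka. Between sites the numbers are shared only.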

Additional observations from a re-analysis of the deposited data

Results flagged for a closer look

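Values of 24 groups of 6 leaf or bud libraries of the same collection or month were examined for a library far from the others, which chance alone marks in about 1 of 20 groups, and 2 were marked. CYE_r3.1SPE0_g004050.1 had 13.33 TPM in the Fukuoka replicate 1 bud of 26 September, and CYE_r3.1SPA2_g040760.1 had 12.46 TPM in the same library, far above the other 5 September buds of each gene. Both genes were named for the highest level in a single June to March bud. The chance rate does not apply to values picked in that way, so both marks are descriptions only.

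The change of leaf level between collections 1 and 4 differed between the sites for 65 members by the F test of the difference. The widest ranges were 5.28 for CYE_r3.1SPA5_g019060.1, with a rise in Hokkaido, and 4.92 for CYE_r3.1SPA0_g129160.1, with a fall there.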

How the results depend on the processing

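Other than with single trees left out, counts of called members for June (64), for the change between sites (65) and for collection 4 (17) stayed within 1.5 times under every setting run. Leaving out each tree in turn gave 45 to 78 calls for June, 41 to 71 for the change, 1 to 15 for collection 2, 2 to 6 for collection 3 and 11 to 15 for collection 4. It gave 4 to 20 for site level, 2 to 13 for Hokkaido against Fukuoka, 3 to 17 for Hokkaido against Tsukuba, 0 to 0 for Tsukuba against Fukuoka, 0 to 2 for August against July, 0 to 1 for midsummer and 0 to 0 for April. A site left with 1 tree was assumed to vary like the others.

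With no filter on level there were 0 calls for site level, 3 for Hokkaido against Fukuoka, 1 for Hokkaido against Tsukuba, 4 in collection 2 and 5 in collection 3. With the adjusted p alone there were 30 for site level, 23 and 24 for Hokkaido against Fukuoka and Tsukuba, 12 for August against July, 6 for midsummer and 13 in collection 2. With the tree as a replicate block there were 1 for August against July, 15 in collection 2 and 13 in collection 3, and no other count moved by over 1.5 times. Without the June library of Hokkaido replicate 1, a setting added after seeing the data, there were 2 for Tsukuba against Fukuoka, 1 for August against July, 14 in collection 2 and 15 in collection 3. Single moves were 1 for midsummer with a pseudocount of 0.1, 1 for August against July with a filter at 5 TPM, 3 in collection 2 with median scaling, 1 for Tsukuba against Fukuoka with the eBayes trend and robust options, and 2 for April with all 66 buds. The cause was not tested. No share of all genes is set beside these counts, which show only how the member counts moved. For named genes, 333 of 400 values under alternatives stayed on the same side of the threshold, 67 fell short of it and 0 reversed.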
